A study of Mus musculus with 17 samples.

Results

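Antiviral interferon-stimulated genes were followed across 5 p65/RelA constructs in the mouse leukaemia cell line DA1-3b. The set held 40 genes, taken by the gene name in the array files, and the brightest of a gene's probes stood for it. Of these, 34 passed the background filter, which asks that all arrays of 1 or more constructs show the probe well above background, and 28 of them were detected on all 17 arrays. They made up 34 of the 15254 genes tested. The genes were chosen by name as classic antiviral interferon-stimulated genes, leaving out the interferon-inducible GTPases. Earlier results of these data were known when they were chosen.

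DA1-3b is a Bcr-Abl+ line from mouse strain C3H eOuJ, grown in DMEM with serum, and every group carried a p65 plasmid. Wild-type p65 (WT) was on 4 arrays. The other groups were D361E, a point mutant called non-cleavable in the series design (4 arrays), residues 1-361 alone (3 arrays), residues 362-549 alone (3 arrays) and both fragments together (1-361+362-549, 3 arrays). Cells with the empty plasmid were not analysed here, so WT served as the reference, and no value below measures the effect of p65 itself. The promoter of the plasmids, whether transfection was stable, whether a group came from 1 clone and the time of harvest are not given in the sources used here. The labels do not state whether replicate arrays stem from independent cultures, and the p-values then reflect only array-to-array spread, possibly technical.

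Interferons bind cell-surface receptors, and JAK kinases then activate the complex ISGF3, which holds STAT2 and IRF9. ISGF3 binds interferon-stimulated response elements in promoters and switches on the antiviral genes, whose products sense viral RNA, degrade it, block its translation or stop virus entry. p65, also called RelA, is the NF-kB subunit whose amino-terminal part binds DNA and whose carboxy-terminal part activates transcription; NF-kB takes part with IRF factors in switching on the interferon-beta gene and some antiviral genes.

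Promoter sequence was set beside the array values because the response element is the feature that many of these genes share. RefSeq promoter windows (build GRCm38.p6, 250 bases before to 50 after the gene start) were found for 30 of the 40 genes. The letters GAAA, any 2 bases, then GAAA, searched on both strands, occurred in 13 of the 30 (43.3%), against 3.99% of all 27018 genes with a window. Stretches are given below for 3 genes that were called higher with both fragments than with other constructs (Isg15, Oas1a, Ifit1) and 2 that were not (Bst2, Oas3). Ifit1 passed the background filter through the group with both fragments alone, so its calls are a description. Capitals mark the matching letters, read in the direction of the gene, and a TTTC match is the same motif on the other strand.
Isg15 (chr4:156200865-156200906, minus strand, 3 overlapping matches, the nearest at base -66 from the start): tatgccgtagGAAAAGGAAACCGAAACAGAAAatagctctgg
Oas1a (chr5:120907526-120907555, minus strand, 2 overlapping matches, the nearest at base -14): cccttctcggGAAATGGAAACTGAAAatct
Ifit1 (chr19:34640775-34640823, plus strand, 2 matches, the nearest at base -85): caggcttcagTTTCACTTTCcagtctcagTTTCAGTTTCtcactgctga
Bst2 (chr8:71537577-71537612, minus strand, 2 overlapping matches, the nearest at base -124): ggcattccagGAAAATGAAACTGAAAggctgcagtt
Oas3 (chr5:120777715-120777744, minus strand, 1 match at base -75): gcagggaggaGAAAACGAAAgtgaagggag
Of the genes called higher with both fragments in at least 1 comparison, 5 of the 13 with a window held a match (38.5%), and of the other members 8 of 17 did (47.1%). The 17 include Cmpk2, Ifi44, Ifih1, Ifit3, Parp12 and Rsad2, which failed the background filter and could not be called. Of these, Ifih1, Ifit3 and Rsad2 held a match. Repeated or overlapping copies stood in promoters of both kinds, Isg15 and Bst2 among them. A gamma-activated site (TTCNNNGAA, which reads the same on both strands) was matched in 9 of the 30 windows (30%, against 9.55% of all genes), and the kappa-B consensus, searched on both strands, in 7 (23.3%, against 9.55%). A match describes letters in the window and does not show that a factor binds there.

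Levels are log2 of the array's processed signal minus the 75th percentile of that array, so 0 is the array's 75th percentile. They are comparable between arrays for 1 gene, not between genes. Each array had between 19262 and 21118 probes well above background, and the 75th percentile signal ran from 635.8 to 1214. It was 635.8 to 700.1 with 362-549 and 846.7 to 1214 with both fragments, without overlap. It was 773 to 1023 with WT, 668.4 to 898.7 with D361E and 642.7 to 876.8 with 1-361. Rsad2 was not well above background on any array. Its mean level was -6.91 with 362-549, -7.5 with both fragments, -7.4 with WT, -7.51 with D361E and -7.1 with 1-361. The part of this scaling in levels near background was not tested. The single Rela probe spanned 4.62 to 4.94 over the 17 arrays with every group overlapping another, so it did not tell the constructs apart, and whether it lies in the plasmid sequence was not tested. All constructs were tested in 1 limma model with Benjamini-Hochberg adjustment over all genes, and "called" below means an adjusted p under 0.05. The 4 comparisons with WT share the WT arrays, and the 4 that involve both fragments share those arrays, so they are not independent of each other.

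Expression of both fragments together went with higher levels of 9 antiviral genes than WT and a sharp fall of Ifitm1. The 9 higher members were Irf7, Irf9, Isg15, Isg20, Oas2, Mx2, Parp9, Samd9l and Rtp4. Ifitm1 was lower, and Ifitm6 was called lower from signals at or near background. Rtp4 passed the background filter only through the group with both fragments, where it is high, so its call is a description. These 11 calls among 34 members (32.4%) stood beside 783 calls among all 15254 genes (5.13%), with 1.99% of all genes called higher and 3.14% lower. The median member difference was 0.42 on the log2 scale, against 0.04 over all genes. It was 0.35 over the 28 members detected on every array, 8 of which were called. For 19 of the 34 members the 3 arrays with both fragments did not overlap the 4 WT arrays, which held for 16.6% of all genes.

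Neither fragment alone gave a called member against WT by limma in the main model, which has no block. A block by the rounds of the title numbers, which the labels do not explain, called 4 members for 362-549 (1.27% of all genes). For 1-361 that block called 0 (1.35%). The counts that follow are of the main model. With 1-361, 0 of 34 were called (3 at an unadjusted p under 0.05, and 0.715% of all genes called), and the median member difference was -0.16 (0.04 over all genes). With 362-549, 0 of 34 were called (6 at an unadjusted p under 0.05, all lower, and 0.715% of all genes called), with a median of -0.23 (0.05 over all genes). D361E gave 2 calls (0.485% of all genes), Isg20 lower and Ifitm6 higher, the latter having passed the filter through D361E alone, with a median of -0.17 (0.03 over all genes). The arrays did not overlap WT for 4 members with D361E (3.62% of all genes), 3 with 1-361 (10.4%) and 2 with 362-549 (9.73%).

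**Figure D1:**
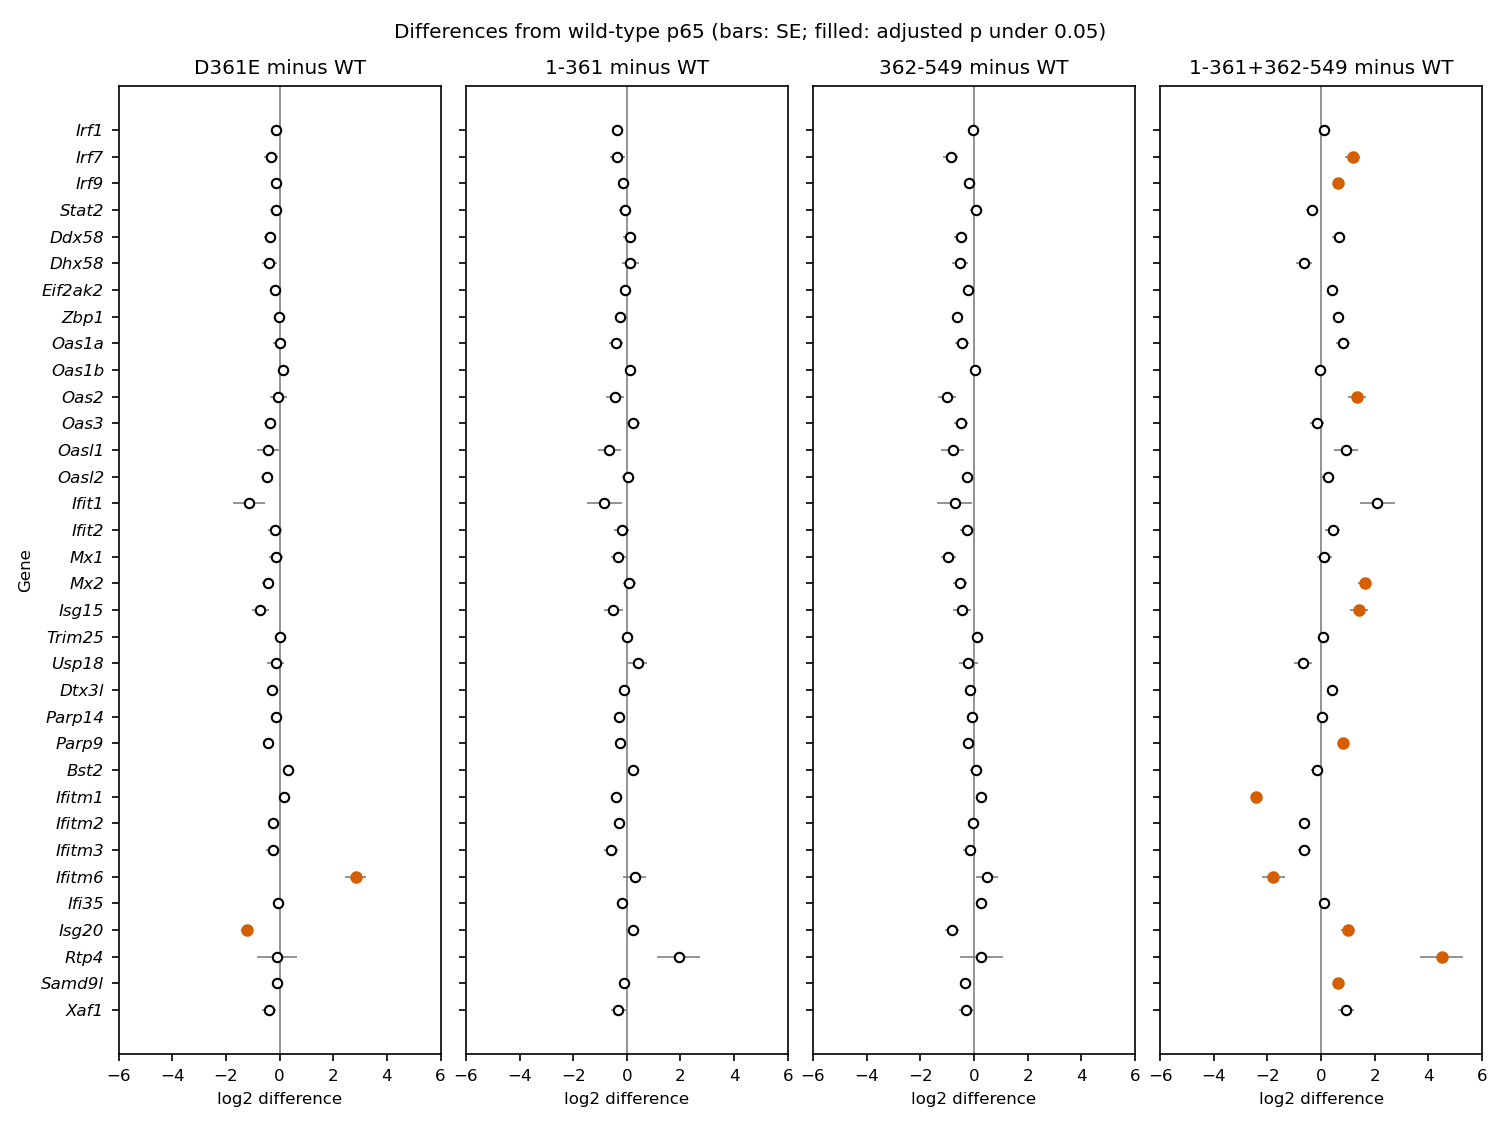
Log2 difference from WT (horizontal axis) for each of the 34 members that passed the background filter, 1 panel per construct; bars are SE from the limma model and filled points were called at an adjusted p under 0.05. Filled points are absent with either fragment alone, number 2 with D361E and 11 with both fragments.

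The arrays with both fragments also differed from the other 3 constructs. Against 1-361 alone, 14 members were called (11.2% of all genes, 4.66% higher and 6.49% lower), 12 of them higher, with a median difference of 0.51 (-0.04 over all genes). Against 362-549 alone, 20 were called (14.6% of all genes, 5.66% higher and 8.92% lower), 18 of them higher, with a median of 0.65 (-0.03 over all genes). Against D361E, 18 were called (9.69% of all genes, 4.31% higher and 5.38% lower), 16 of them higher, with a median of 0.64 (0 over all genes). Ifit1, in all 3 higher counts, and Rtp4, in those against 362-549 and D361E, passed the filter through the group with both fragments alone. Ifitm6 was among the lower calls of each comparison and passed the filter through D361E alone. The calls of these genes are a description. The 2 single fragments were compared directly as well, and limma called 0 of 34 members (7 at an unadjusted p under 0.05, and 0.629% of all genes called). With the block by round it called 2 (1.7% of all genes). The comparisons of single fragments with D361E called Isg20 and Ifitm6 for 1-361 (2 members, 1.02% of all genes) and Ifitm6 for 362-549 (1 member, 1.28%). Here too the Ifitm6 calls are a description. By the F-test over the 5 groups, 16 members were called (8.9% of all genes). Among them were Ifit1, Rtp4 and Ifitm6, each of which passed the filter through 1 group alone.

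Mx2, Isg15, Oas2, Irf7, Irf9, Parp9 and Samd9l were called higher with both fragments than with each of the other 4 constructs, which is 7 of 34 members (20.6%) beside 1.29% of all genes. Ifitm1 and Ifitm6 were called lower in all 4 comparisons (5.88% of members, 2.08% of all genes). Ifitm6 passed the filter through D361E alone and was otherwise at or near background, so its calls are a description. On 11 members, each of the 3 arrays with both fragments was above each of the other 14 (32.4%, against 4.23% of all genes).

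**Figure D2:**
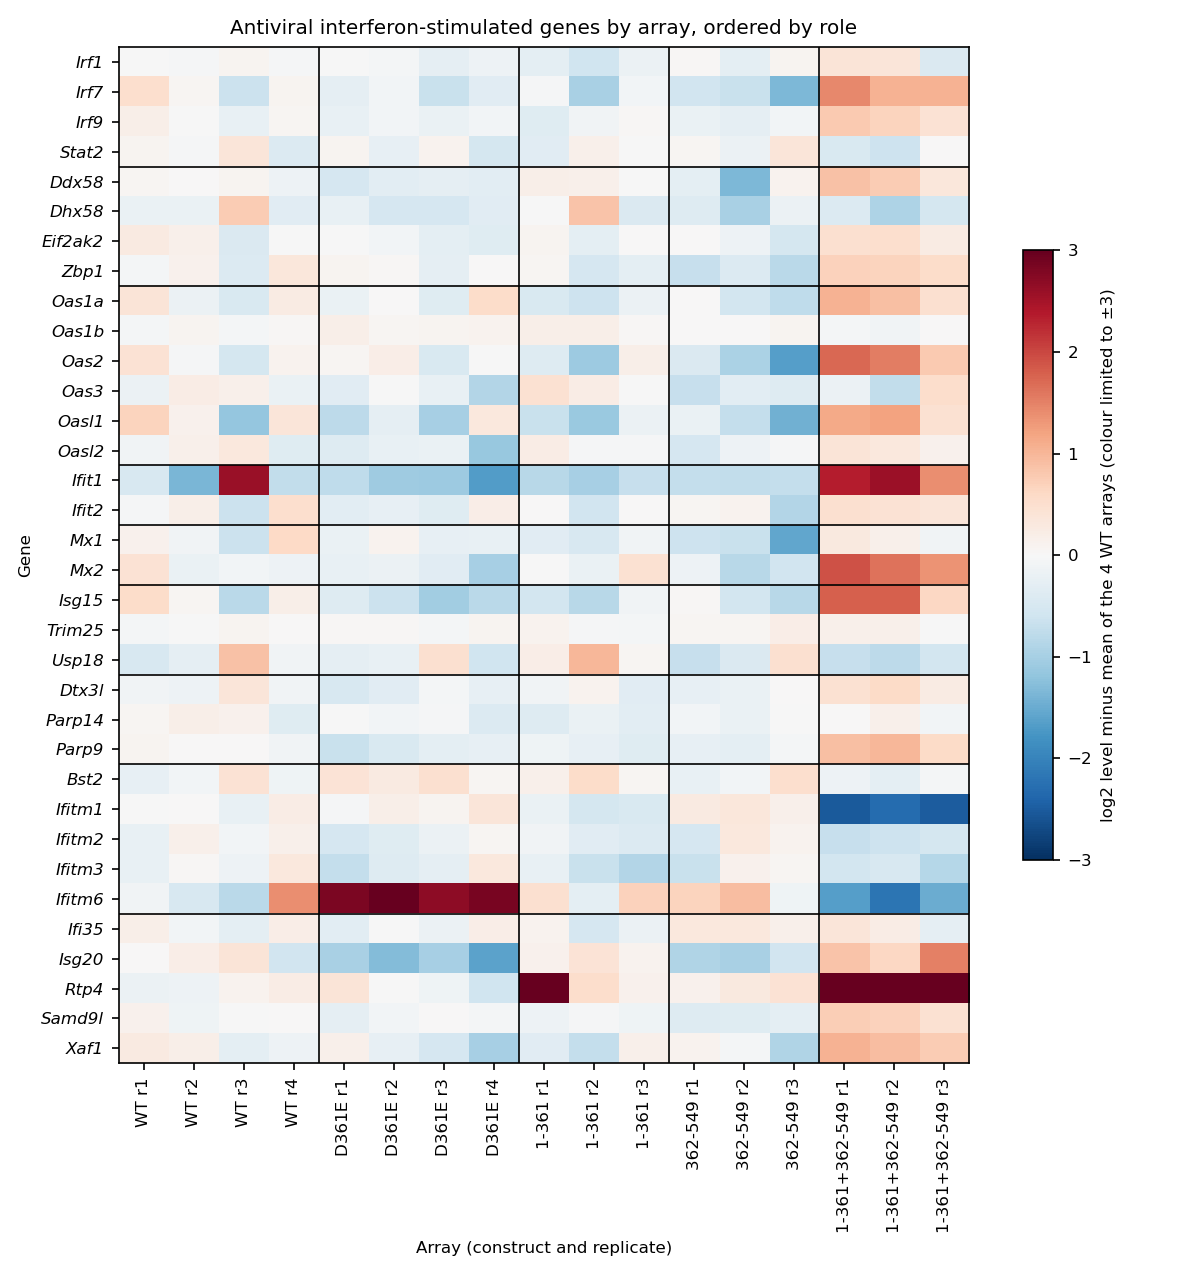
Level of each of the 34 members on each of the 17 arrays, as the log2 difference from the mean of the 4 WT arrays (colour, limited to ±3), with genes ordered by role and horizontal lines between roles. With both fragments the mean difference is above 0 for 24 members and below 0 for 10, among them Usp18, Dhx58, Ifitm2 and Ifitm3. The 3 columns with both fragments are bluest for Ifitm1 and Ifitm6, and the 4 D361E columns are red for Ifitm6.

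Transcription factors come first. Irf7, which amplifies the interferon response, had levels of -2.84, -3.28, -3.98 and -3.27 with WT and -3.61, -3.43, -4.00 and -3.68 with D361E. It had -3.38, -4.31 and -3.43 with 1-361, -3.92, -4.00 and -4.69 with 362-549, and -1.90, -2.29 and -2.30 with both fragments. All 3 arrays with both fragments were above the other 14. The difference from WT was 1.18 ± 0.28 (SE), 2.26-fold, with a limma adjusted p of 0.02227, and that from 362-549 was 2.04 ± 0.30 (adjusted p = 0.0004365).

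Irf9, the DNA-binding subunit of ISGF3, showed 0.61, 0.44, 0.23 and 0.49 with WT, 0.23, 0.35, 0.25 and 0.36 with D361E, 0.09, 0.34 and 0.47 with 1-361 and 0.24, 0.18 and 0.36 with 362-549. With both fragments it showed 1.22, 1.10 and 0.88, each above the other 14 arrays. The rise over WT was small in size, 0.62 ± 0.13 or 1.54-fold (limma adjusted p = 0.009054). Stat2, also an ISGF3 subunit, was not called against WT (-0.35 ± 0.22, adjusted p = 0.4405), and its arrays with both fragments, 1.30, 1.15 and 1.78, overlapped the WT range of 1.34 to 2.13. Irf1, a factor induced by interferon-gamma and NF-kB, was not called either (0.10 ± 0.18), and 2 of its 3 arrays with both fragments (1.14 and 1.12) lay above WT while the third (0.31) lay below.

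Sensors of nucleic acid were not called against WT. Ddx58, which encodes the RNA sensor RIG-I, had 1.21, 1.18, 1.24 and 1.00 with WT, 0.66, 0.83, 0.88 and 0.84 with D361E, 1.33, 1.32 and 1.15 with 1-361, 0.86, -0.18 and 1.27 with 362-549 and 2.03, 1.92 and 1.5 with both fragments. The arrays with both fragments were the 3 highest of the 17. Ddx58 was called against D361E (1.02 ± 0.25, adjusted p = 0.01593) and 362-549 (1.17 ± 0.26, adjusted p = 0.01001), and the difference from WT was 0.66 ± 0.25 (adjusted p = 0.1553). A second, dimmer Ddx58 probe differed from 362-549 by 0.09 ± 0.30.

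Zbp1, a sensor of Z-form nucleic acid, was near background. Its levels were -4.62, -4.42, -4.98 and -4.22 with WT, -4.48, -4.52, -4.84 and -4.54 with D361E, -4.50, -5.06 and -4.85 with 1-361, -5.24, -4.97 and -5.37 with 362-549 and -3.87, -3.89 and -4.02 with both fragments. The last 3 were the highest, and with 362-549 no array was well above background. The level with both fragments was at least 1.64-fold that with 362-549 (adjusted p = 0.0006293), and against WT the difference was 0.63 ± 0.18 (adjusted p = 0.06119). Here and below, "at least" sets the brighter group against the lowest signal well above background on the dim arrays.

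Eif2ak2, the kinase PKR that stops translation on double-stranded RNA, read -0.03, -0.15, -0.73 and -0.32 with WT, -0.31, -0.40, -0.61 and -0.68 with D361E, -0.22, -0.59 and -0.30 with 1-361, -0.30, -0.46 and -0.84 with 362-549 and 0.18, 0.20 and -0.06 with both fragments. The highest WT array overlapped the group with both fragments. It was called against 362-549 (0.64 ± 0.19, adjusted p = 0.03864) and D361E (0.61 ± 0.18, adjusted p = 0.04704), and the second call was lost on leaving out any of 12 of the 17 arrays. Dhx58, the RIG-I relative LGP2, differed from WT by -0.63 ± 0.31 (adjusted p = 0.3002). Ifih1, which encodes the RNA sensor MDA5, was well above background on 1 array only, replicate 1 of 1-361, at -2.62, and the other 16 read between -7.55 and -6.41.

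The oligoadenylate synthetases make the second messenger that activates RNase L. Oas2 was the member called against WT, with 0.52, 0.05, -0.45 and 0.18 for WT, 0.13, 0.27, -0.38 and 0.06 for D361E, -0.32, -1.01 and 0.26 for 1-361, -0.37, -0.88 and -1.57 for 362-549 and 1.79, 1.60 and 0.86 for both fragments. No other array reached the lowest of the 3 with both fragments. The difference from WT was 1.34 ± 0.34, 2.54-fold (adjusted p = 0.03073), and from 362-549 2.36 ± 0.36, 5.12-fold (adjusted p = 0.0006191).

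Oas1a gave 3.48, 2.94, 2.65 and 3.35 with WT, 2.90, 3.12, 2.73 and 3.65 with D361E, 2.65, 2.48 and 2.94 with 1-361, 3.12, 2.55 and 2.34 with 362-549 and 4.14, 4.01 and 3.59 with both fragments. It lay above WT on all 3 arrays without a call (0.81 ± 0.26, adjusted p = 0.09289), and was called against 1-361 (1.23 ± 0.28, adjusted p = 0.01295) and 362-549 (1.25 ± 0.28, adjusted p = 0.009331). Oasl1, a catalytically inactive relative, varied widely between arrays of 1 construct: -0.02, -0.57, -1.84 and -0.32 with WT, -1.48, -0.95, -1.69 and -0.38 with D361E, -1.36, -1.79 and -0.86 with 1-361, -0.88, -1.40 and -2.14 with 362-549 and 0.44, 0.52 and -0.22 with both fragments. Its calls were against 1-361 (1.58 ± 0.46, adjusted p = 0.04044) and 362-549 (1.72 ± 0.46, adjusted p = 0.02301), the first of which was lost on leaving out any of 8 arrays. The highest WT array overlapped the group with both fragments.

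Oasl2 had -0.18, 0.09, 0.25 and -0.44 with WT, -0.46, -0.29, -0.26 and -1.20 with D361E, 0.15, -0.10 and -0.10 with 1-361, -0.58, -0.23 and -0.11 with 362-549 and 0.31, 0.24 and 0.06 with both fragments. Its single call was against D361E (0.75 ± 0.22, adjusted p = 0.04431), where replicate 4 was the lowest of all arrays, and it was lost on leaving out any of 11 arrays. Oas1b and Oas3 had no call in any comparison. Against WT they differed by -0.05 ± 0.10 and -0.14 ± 0.26 with both fragments.

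IFIT proteins bind viral RNA and block its translation. Ifit1 was not well above background on most arrays: it read -6.33, -7.22, -3.27 and -6.60 with WT, -6.61, -6.92, -6.95 and -7.52 with D361E, -6.68, -6.86 and -6.54 with 1-361, -6.56, -6.59 and -6.56 with 362-549 and -3.50, -3.29 and -4.46 with both fragments. The 3 arrays with both fragments and WT replicate 3 were the 4 on which it was detected. The levels with both fragments were at least 2.03-fold those with 1-361, at least 1.86-fold those with 362-549 and at least 2.69-fold those with D361E. Against WT there was no call, and the fitted difference was 2.10 ± 0.65. Ifit2 was detected on all arrays and had no call (0.43 ± 0.28 against WT), and Ifit3 was detected only on replicate 2 with both fragments, at -5.12. Ifit1 passed the filter through the group with both fragments alone, so its folds are given without a test.

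The Mx GTPases trap viral nucleocapsids. Mx2 had -2.49, -3.12, -2.99 and -3.07 with WT, -3.13, -3.09, -3.26 and -3.92 with D361E, -2.92, -3.12 and -2.45 with 1-361, -3.07, -3.75 and -3.50 with 362-549 and -1, -1.29 and -1.56 with both fragments. The 3 arrays with both fragments stood clear of the other 14. The rise over WT was 1.63 ± 0.25, 3.1-fold (adjusted p = 0.0006395), and over 362-549 it was 2.16 ± 0.26, 4.46-fold (adjusted p = 6.952e-05).

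Mx1 read 0.20, -0.03, -0.58 and 0.67 with WT, -0.13, 0.18, -0.18 and -0.16 with D361E, -0.27, -0.42 and -0.03 with 1-361, -0.56, -0.60 and -1.49 with 362-549 and 0.35, 0.22 and -0.03 with both fragments. It differed from WT by 0.12 ± 0.27 (adjusted p = 0.8446) with overlapping arrays. Its call was against 362-549 (1.07 ± 0.28, adjusted p = 0.0223), whose replicate 3 was the lowest array.

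Isg15 encodes a ubiquitin-like modifier that is joined to other proteins. Its levels were -0.37, -0.87, -1.73 and -0.75 with WT, -1.32, -1.57, -1.97 and -1.74 with D361E, -1.47, -1.77 and -1.04 with 1-361, -0.89, -1.48 and -1.76 with 362-549 and 0.87, 0.86 and -0.32 with both fragments. Replicate 3 with both fragments was only just above the highest WT array. The difference was 1.40 ± 0.34 against WT, 2.64-fold (adjusted p = 0.02647), and 2.12 ± 0.34 against D361E, 4.34-fold (adjusted p = 0.0008674). Usp18, the protease that removes ISG15 and damps interferon receptor signalling, was not called and lay below WT on all 3 arrays with both fragments (-0.67 ± 0.35, adjusted p = 0.3411). Trim25, a ubiquitin and ISG15 ligase that acts with RIG-I, differed from WT by 0.09 ± 0.10.

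Parp9 and Dtx3l encode partners in 1 ADP-ribosylation and ubiquitin ligase complex. Parp9 had -0.73, -0.79, -0.81 and -0.92 with WT, -1.48, -1.28, -1.10 and -1.06 with D361E, -0.94, -1.05 and -1.18 with 1-361, -1.06, -1.11 and -0.88 with 362-549 and 0.08, 0.19 and -0.23 with both fragments. The 3 last arrays were the highest, and the WT arrays were closely grouped. Parp9 rose over WT by 0.83 ± 0.14, 1.77-fold (adjusted p = 0.001452); a second, dim probe for another transcript, detected on 6 arrays, differed by 0.30 ± 0.54.

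Dtx3l had 0.09, 0.03, 0.55 and 0.08 with WT, -0.29, -0.15, 0.13 and -0.06 with D361E, 0.09, 0.29 and -0.16 with 1-361, -0.05, -0.01 and 0.21 with 362-549 and 0.64, 0.77 and 0.43 with both fragments. WT replicate 3 overlapped the group with both fragments. It was called against D361E (0.70 ± 0.16, adjusted p = 0.0109) and 362-549 (0.56 ± 0.17, adjusted p = 0.04044), not against WT (0.42 ± 0.16, adjusted p = 0.167). The call against 362-549 was lost on leaving out any of 9 of the 17 arrays (adjusted p up to 0.168). The 2 dimmer Dtx3l probes differed from D361E by 0.24 ± 0.20 and 0.26 ± 0.26. Parp14 had no call (0.02 ± 0.15 against WT), and Parp12 was not well above background on any array.

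Among the remaining effectors, Rtp4, a chaperone of membrane receptors, read -7.03, -7.00, -6.75 and -6.63 with WT, -6.47, -6.86, -6.99 and -7.45 with D361E, -1.72, -6.33 and -6.72 with 1-361, -6.72, -6.55 and -6.43 with 362-549 and -2.20, -2.06 and -2.83 with both fragments. It was detected on the 3 arrays with both fragments and on replicate 1 of 1-361, which was the highest of all. The level with both fragments was at least 6.50-fold that with WT, at least 7.03-fold that with D361E and at least 4.87-fold that with 362-549. Rtp4 passed the filter through the group with both fragments alone, so these folds are given without a test.

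Isg20, an exonuclease that degrades single-stranded RNA, had 3.55, 3.74, 3.93 and 2.96 with WT, 2.58, 2.24, 2.56 and 1.95 with D361E, 3.68, 3.95 and 3.65 with 1-361, 2.65, 2.58 and 2.96 with 362-549 and 4.41, 4.17 and 5.06 with both fragments. The arrays with both fragments were the 3 highest, and every D361E array was below every WT array. Isg20 rose over WT by 1.00 ± 0.25 with both fragments, 2.00-fold (adjusted p = 0.02756), and with D361E it fell by 1.21 (SE 0.23, adjusted p = 0.02731). It was higher with 1-361 than with D361E by 1.43 ± 0.25 (adjusted p = 0.008163), and a second Isg20 probe also rose with both fragments, by 1.00 ± 0.25 (adjusted p = 0.0285 over probes). The D361E call was lost on leaving out any of 6 of the 8 WT and D361E arrays, with adjusted p-values up to 0.129.

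Samd9l, an inhibitor of translation and of cell growth, had 0.38, 0.12, 0.25 and 0.26 with WT, -0.01, 0.16, 0.27 and 0.19 with D361E, 0.09, 0.22 and 0.13 with 1-361, -0.14, -0.10 and -0.04 with 362-549 and 1.00, 0.94 and 0.71 with both fragments. The last 3 were above the other 14. The rise over WT was 0.63 ± 0.11, 1.55-fold (adjusted p = 0.003182), and 0.71 ± 0.15 on a second probe (adjusted p = 0.01177 over probes).

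Xaf1, which promotes apoptosis, read -1.09, -1.17, -1.65 and -1.5 with WT, -1.19, -1.60, -1.86 and -2.35 with D361E, -1.70, -2.07 and -1.21 with 1-361, -1.24, -1.41 and -2.25 with 362-549 and -0.31, -0.42 and -0.58 with both fragments. These 3 were the highest of the 17 arrays. Xaf1 was called against D361E (1.32 ± 0.29, adjusted p = 0.00844), 1-361 (1.23 ± 0.31, adjusted p = 0.02169) and 362-549 (1.2 ± 0.31, adjusted p = 0.01875), and the difference from WT was 0.92 ± 0.29 (adjusted p = 0.08638). Ifi35 had no call (0.10 ± 0.19 against WT). Rsad2, which encodes viperin, was not well above background on any array. Ifi44 was detected on D361E replicate 2 alone, at -1.96, and Cmpk2 on 2 D361E arrays and 1 array of 362-549.

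**Figure D3:**
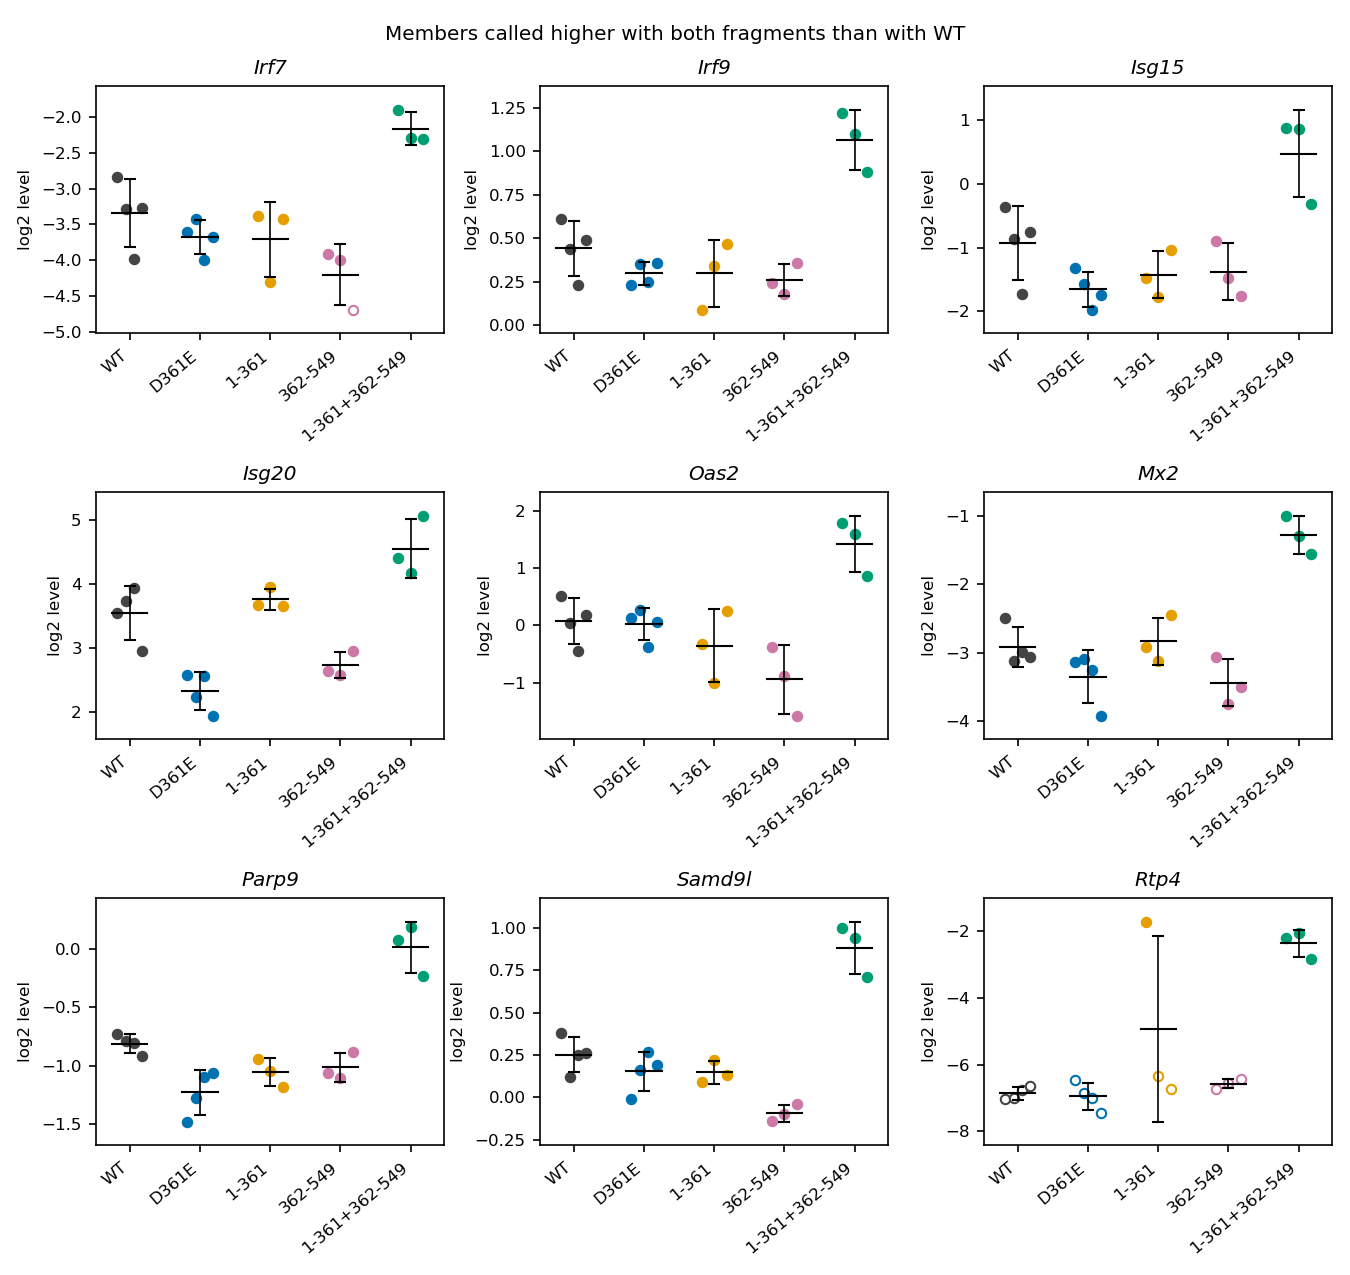
Log2 level (vertical axis) of the 9 members called higher with both fragments than with WT; each point is 1 array, open points were not well above background, and bars are mean ± SD (n = 4 for WT and D361E, 3 for the others). The 3 arrays with both fragments lie above the other 14 for every gene drawn except Rtp4, where replicate 1 of 1-361 is highest at -1.72.

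Of the 5 membrane restriction factors, Ifitm1 fell by a measured amount with both fragments. Ifitm1, whose product hinders virus entry at the plasma membrane, had 6.40, 6.42, 6.20 and 6.65 with WT, 6.39, 6.59, 6.50 and 6.79 with D361E, 6.22, 5.89 and 5.97 with 1-361, 6.69, 6.75 and 6.58 with 362-549 and 3.89, 4.12 and 3.92 with both fragments. The 3 arrays with both fragments were far below the other 14, with little spread inside any group. Ifitm1 fell by 2.44 against WT (SE 0.14, adjusted p = 1.992e-08), to 0.185 of the WT level, and by 2.05 against 1-361, 2.70 against 362-549 and 2.59 against D361E (adjusted p at most 3.739e-07). A second Ifitm1 probe fell by 2.52 (SE 0.15, adjusted p = 3.473e-08 over probes).

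Ifitm6, a member of the same gene cluster, separated D361E from the other constructs. It read -5.54, -5.92, -6.25 and -4.05 with WT, -2.62, -2.46, -2.75 and -2.59 with D361E, -4.97, -5.74 and -4.74 with 1-361, -4.77, -4.51 and -5.57 with 362-549 and -7.10, -7.64 and -6.92 with both fragments. The D361E arrays were the 4 highest and the arrays with both fragments the 3 lowest, and outside D361E only WT replicate 4 was well above background. The fitted difference of D361E from WT was 2.83 ± 0.39, with WT measured on 1 of its 4 arrays. The D361E level was at least 4.48-fold that with 1-361, at least 4.00-fold that with 362-549 and at least 6.11-fold that with both fragments. The lower fitted values with both fragments than with WT (-1.78 ± 0.42, adjusted p = 0.02084), 1-361 or 362-549 compare signals at or near background, so no fold is given. Ifitm6 passed the filter through D361E alone, so its D361E values are given without a test.

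Ifitm2 and Ifitm3, which act in endosomes, were not called in any comparison. With both fragments Ifitm2 had 2.93, 3.00 and 3.08, below the other 14 arrays, and differed from WT by -0.62 ± 0.19 (adjusted p = 0.08038). Ifitm3 had 2.53, 2.60 and 2.22, below the WT range of 2.86 to 3.39 but overlapping the single fragments and D361E (-0.62 ± 0.25 against WT, adjusted p = 0.2033). Bst2, or tetherin, which holds budding virus on the cell, differed from WT by -0.16 ± 0.20. The probes of Ifitm1, Ifitm2, Ifitm3 and Ifitm6 all map to chromosome 7 on build mm9, from 148140881 to 148201773.

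**Figure D4:**
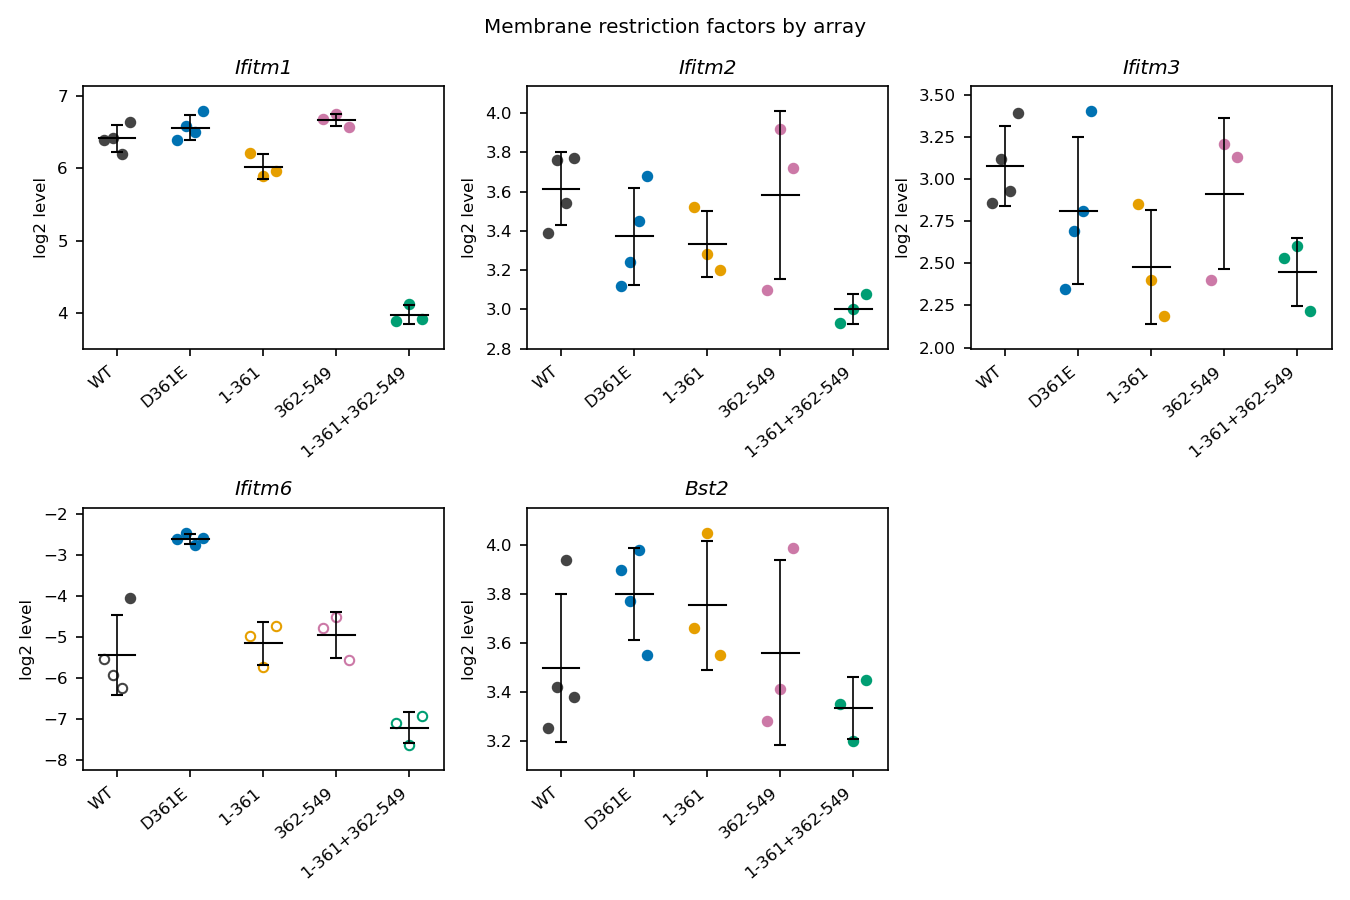
Log2 level (vertical axis) of the 5 membrane restriction factors by construct; each point is 1 array, open points were not well above background, and bars are mean ± SD (n = 4 for WT and D361E, 3 for the others). Ifitm1 falls from 6.20 to 6.65 with WT to 3.89 to 4.12 with both fragments, and Ifitm6 lies between -2.75 and -2.46 with D361E.

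The slide was the technical batch given by the file headers, with 6 slides, each holding more than 1 construct. With slide as a fixed block the 9 members higher with both fragments than with WT kept their direction, with differences of 0.59 to 3.53, and 0 of 9 stayed called (limma adjusted p of 0.06772 for Mx2 to 0.4 for Irf7), while 9 of 9 had an unadjusted p under 0.05. Ifitm1 alone stayed called against WT (-2.41 ± 0.21, adjusted p = 0.0002134), where 1.59% of all genes were called. This fit has 7 residual degrees of freedom against 12 without the block. The 1 slide that held both a WT array and an array with both fragments gave a median difference of 0.45 over the 34 members, with 24 of them higher with both fragments. Over all comparisons 25 of 68 calls of a member were kept with the block. With it, 13 of 34 members were called for both fragments against D361E (5.13% of all genes). With D361E against WT neither call was kept, Ifitm6 becoming 2.62 ± 0.42 and Isg20 -1.24 ± 0.27 (limma adjusted p = 0.2978 for Isg20). Leaving out replicate 1 with both fragments brought the 11 calls against WT to 5, and leaving out replicate 2 brought them to 7. The shares of all genes called in these fits are not given. The calls of Mx2, Parp9, Samd9l and Ifitm1 against WT held without any 1 of the 17 arrays. Rtp4 stayed called too, but it passed the filter through the group with both fragments alone. Its place among the 9 and the 11 is a description. The call of Irf9 was lost without 1 array and that of Ifitm6 without any of 2. Those of Irf7, Isg15 and Isg20 were lost without any of 4 each and that of Oas2 without any of 5.

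Other genes of the interferon pathway were counted for the comparison of both fragments with WT (5.13% of all genes called). Of 19 interferon genes, 14 were on the array and 4 could be tested (Ifna1, Ifna5, Ifna14 and Ifnab), with 0 called by limma and 0 at an unadjusted p under 0.05. Ifnb1 was well above background on 3 of 17 arrays, and Ifng on 0. Of 16 tested receptor and JAK-STAT genes, Il10rb, a subunit of the interferon-lambda and IL-10 receptors, rose by 0.99 ± 0.24 (adjusted p = 0.02177), while the feedback inhibitors Socs1 and Socs3 fell by 1.44 (SE 0.27, adjusted p = 0.004339) and 1.10 (SE 0.15, adjusted p = 0.0001954). Ifnar1 and Ifnar2, the interferon-alpha and -beta receptor, differed by -0.02 ± 0.19 and -0.05 ± 0.25. Of 14 tested sensing and adaptor genes 0 were called, and 0 had an unadjusted p under 0.05.

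The interferon-inducible GTPases split. Of 14 tested, Tgtp2 (1.24 ± 0.15, adjusted p = 7.346e-05) and Ifi47 (0.68 ± 0.12, adjusted p = 0.003045) rose, and Gbp4 (adjusted p = 2.365e-05), Gbp9 (-2.24 ± 0.36, adjusted p = 0.001245) and Gbp2 (-1.41 ± 0.30, adjusted p = 0.01141) fell. Gbp4 was not well above background on any array with both fragments, and its WT level was at least 5.31-fold higher. Of 16 tested NF-kB target genes, 2 rose (Relb and Nfkb2) and 5 fell (Ccl3, Ccl4, Ccl5, Tnfaip3 and Nfkbia). Ccl3 was above background on 0 arrays with both fragments, its WT level being at least 2.06-fold higher. With 362-549 alone, where the main model called 0 antiviral members, 7 of the 16 NF-kB target genes and 2 of the 14 GTPases fell against WT (0.715% of all genes called). With 1-361 alone, where it also called 0 antiviral members, 4 of the 16 NF-kB target genes and 0 of the 14 GTPases fell (0.715%). Tnfaip3 and Nfkbia were called lower with each fragment alone and with both.

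Markers of other cell types also differed between WT and both fragments. Of 7 mast cell and basophil markers 5 were tested and 4 fell (Cpa3, Fcer1a, Mcpt4 and Mcpt8). Fcer1a and Mcpt8 were above background on 0 arrays with both fragments, their WT levels being at least 3.14-fold and 1.85-fold higher. The summed signal of the list, in units of the 75th percentile, was 1.98 to 3.65 on WT arrays and 0.147 to 0.291 with both fragments. Kit and Ms4a2, 2 defining markers, were above background on 0 arrays. Of 4 tested macrophage markers Adgre1 fell, its WT level being at least 10.6-fold that with both fragments. Of 3 tested erythroid markers Klf1 fell by 0.84, while the haemoglobin genes Hba-a1 and Hbb-b2 differed by 0.79 ± 0.44 and 0.99 ± 0.32 without a call. Of 4 tested T cell markers Cd3d fell by 0.95, and Cd3g was called lower from signals near background. Cd3g was above background on 2 WT arrays and 0 with both fragments, its WT level being at least 1.13-fold higher. Of 4 tested megakaryocyte markers Pf4 rose by 2.20, and the others were not called. The summed megakaryocyte signal went from 38.9 to 51.8 with WT to 110 to 183 with both fragments. Pf4 was the brightest of that list (mean level 5.22), so the sum is not separate from its rise. Plasmacytoid dendritic cells are a main interferon source, and of their 3 tested markers 0 were called or reached an unadjusted p under 0.05, with a summed signal of 44.1 to 47.6 with WT and 33.8 to 62.4 with both fragments. The part of these markers in the antiviral differences was not tested. In RNA of a whole culture, fewer cells of a type and less RNA per cell cannot be told apart.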

How the data were processed

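The 17 files hold Agilent spot intensity values, 1 colour (Cy3). Per the file headers and the submitters' processing notes, the authors read the arrays with Agilent Feature Extraction 10.7.3.1; the deposited intensity used here is its processed signal, already background-subtracted. Probe coordinates are on mm9, per the file headers. Signals were turned to log2 and each array's 75th percentile was subtracted. Control and outlier spots were left out, and a probe was kept when all arrays of 1 or more constructs showed it well above background (19769 of 39429 probes). Groups came from each sample's source name. Tests used limma 3.58.1 in R 4.3.3 (lmFit and eBayes), with 1 model for the 5 constructs. They used Benjamini-Hochberg adjustment over 15254 genes and a threshold of 0.05, and were checked on simulated data. The simulated arrays had independent noise and no slide or round effect, so the check does not cover such effects. Precision is limited by how few arrays each group has.

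The members and gene lists were chosen with earlier results of these data known. All 40 members are named; values per array are given for those called in any comparison, and other lists give counts, with at most 4 called genes named by smallest adjusted p in each list. Relb, Nfkb2, Nfkbia, Gbp2 and the uncalled interferon, receptor and marker genes were named after their values were seen. Alternatives varied the scaling, background correction, dim-probe filter, probe choice, slide, replicate block, arrays in the fit and each array left out. Other probes, within-slide values and members detected on all arrays were added after seeing the data.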

Additional observations from a re-analysis of the deposited data

Results flagged for a closer look

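Of 42 groups of 4 arrays examined over the members named with values per array, 3 held 1 array far from the other 3; chance gives about 1 in 20. Mx1 on D361E replicate 2 read 0.18 against -0.18 to -0.13 on the others. Dtx3l on WT replicate 3 read 0.55 against 0.03 to 0.09, and Zbp1 on D361E replicate 3 read -4.84 against -4.54 to -4.48.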

How the results depend on the processing

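The normexp background correction lowered the calls to 7 by the F-test, 0 for D361E against WT, 3 for both fragments against WT, 7, 10 and 9 for both fragments against 1-361, 362-549 and D361E, and 0 for each single fragment against D361E. It turned the sign of 1 value, Ifitm6 with both fragments against 1-361 (0.09, adjusted p = 0.9642, a range of 0.0007902 to 0.9642 over the alternatives), where both groups were dim. Slide as a fixed block gave 6 by the F-test (3.07% of all genes) and 0 for D361E against WT (0.157%). With both fragments it gave 1 against WT (1.59%), 7 against 1-361 (3.02%), 4 against 362-549 (1.76%) and 13 against D361E (5.13%). For 1-361 and 362-549 against D361E it gave 0 each (0.321% and 0.361%). Without scaling, which moved the median of all genes by up to 0.58, 1 member was called for 362-549 against WT and 1 between the single fragments. Quantile normalization gave 1 for D361E against WT. Without a filter on dim probes there were 1 and 6 for D361E and both fragments against WT. With only probes detected on all arrays, 1 was called for D361E against WT, 1 for 1-361 against D361E and 0 for 362-549 against D361E. With only the 2 groups compared in the fit, 1 was called for D361E against WT, 5 for both fragments against WT and 11 against 362-549. Apart from the slide block, these counts are given without the share of all genes called under the same setting. They do not tell a change of the members from a change across all genes. The cause of these changes was not tested.

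Leaving out 1 array gave 10 to 18 calls by the F-test, 1 to 2 for D361E and 0 to 1 for 362-549 against WT, 5 to 12, 9 to 16, 13 to 20 and 12 to 21 for both fragments against WT, 1-361, 362-549 and D361E, and 0 to 2 and 0 to 1 for 1-361 and 362-549 against D361E. The shares of all genes called in these fits are not given, so a change across all genes is not told apart. Ifitm1 stayed called in its 4 comparisons under every alternative run.

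The leading title numbers form rounds with at most 1 array per construct, which the labels do not explain. Round 4 holds 2 arrays, of WT and D361E, and none of the fragment groups. Arrays of 1 round did not all deviate together, but did so more than arrays of different rounds. Of pairs in 1 round, 24 of 31 correlated over 0.1 (-0.18 to 0.73, median 0.38). Of pairs from different rounds, 19 of 84 did (-0.7 to 0.67, median -0.14). Also, 14 of 17 arrays correlated best with their own round, a hint from the data and not from the design. The main model has no block for round. With construct in the model, 21 of 34 members and 50.3% of all genes differed between rounds (limma F-test, adjusted p under 0.05). The replicate block by round gave 27 calls by the F-test (36.1% of all genes), 4 for 362-549 (1.27%, against 0 members without the block) and 21 for both fragments (30.7%) against WT, 24 for both fragments against 1-361 (37%), 2 between the single fragments (1.7%) and 3 for 362-549 against D361E (3.56%). Of the 11 calls for both fragments against WT, 11 were kept. Probes near background set the limit: 6 of the 40 members could not be tested.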
